A study of Homo sapiens with 60 samples.

Results

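A549 cells exposed to the water extract of Zizyphi Semen at 500 µg/mL (Zizyphi 500) were set against A549 cells exposed to the same extract at 20 µg/mL (Zizyphi 20). A549 is an established line of human lung carcinoma cells, grown in RPMI medium with serum. Zizyphi Semen is the dried seed of a jujube, used in East Asian herbal medicine. The 6 libraries of both doses, 3 per dose, were chosen by the dose and extract in their labels, out of 60 libraries in 20 groups of 3. Every gene in the table was considered. The other groups used here are the same extract at 100 µg/mL (Zizyphi 100), the water extract of Longan Arillus, the flesh of the longan fruit, at 500 µg/mL (Longan 500) and 20 µg/mL (Longan 20), and cells given dimethyl sulfoxide alone (Vehicle). All groups share the A549 background and 24 h of exposure. The Zizyphi and Longan libraries carry library names that start with 3, and Vehicle belongs to another library set. Levels beside Vehicle are therefore descriptions, because the library set and the exposure cannot be told apart there. The labels and the design text differ on the dimethyl sulfoxide level of Vehicle, and no label of an extract group gives one. The design text also speaks of lower doses for toxic extracts, while the labels of these groups state 500, 100 and 20 µg/mL, and the labels were followed.

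Cells regulate lineage and growth programmes partly through the ID proteins, which lack a DNA-binding region and hold partner transcription factors in inactive pairs. ID genes are well known as early targets of bone morphogenetic protein (BMP) receptors and their SMAD proteins. Fatty acids are built from acetyl-CoA by acetyl-CoA carboxylase (ACACA) and fatty acid synthase (FASN) and given a double bond by stearoyl-CoA desaturase (SCD). SREBF1 encodes a membrane-bound transcription factor that raises the transcription of these enzymes once it is cut free, whereas its relative SREBF2 mainly serves cholesterol synthesis.

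The 6 libraries held 24.2 to 26.2 M counts, within the 17.7 to 30.6 M of all 60. Replicates of these doses correlated at 0.991 to 0.993 (Pearson, log2 values), and no pair was close enough to be one library deposited again. Mitochondrial genes took 10.5 to 12.1% of counts in Zizyphi 500 and 9.64 to 11.6% in Zizyphi 20. The epithelial keratin KRT8 stood at 3441 to 3595 CPM (counts scaled to a common library depth with TMM factors) in Zizyphi 500 and at 3445 to 3677 CPM in Zizyphi 20. The epithelial adhesion gene EPCAM was low, at 3.65 to 4.89 CPM in Zizyphi 500 and 4.59 to 5.37 CPM in Zizyphi 20. Over 12 markers of fibroblasts, endothelium, blood and liver, the summed level was 45.2 to 47.3 CPM in Zizyphi 500 and 46.2 to 49.0 CPM in Zizyphi 20, nearly all of it COL1A1, CD68 and COL3A1, which this line expresses, with PTPRC, HBB, DCN and ALB at or near 0. Without CD68 the sum was 34.2 to 35.2 CPM in Zizyphi 500 and 36.4 to 37.3 CPM in Zizyphi 20, and COL1A1 was 28.2 to 28.8 CPM in Zizyphi 500 and 30.6 to 31.3 CPM in Zizyphi 20. The doses overlapped in neither, and their part in the results was not tested.

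More genes fell than rose at the higher dose, and nearly all differences were small. Of 16583 genes tested, 117 passed at an adjusted p under 0.05 (0.706%; edgeR's quasi-likelihood test, two-sided, Benjamini-Hochberg): 45 rose (0.271%) and 72 fell (0.434%) in Zizyphi 500. An unadjusted p under 0.05 was reached by 1709 genes. The median fold among the 117 was 1.12, the smallest 1.06, and 4 reached 1.5-fold. The 3 libraries of one dose lay wholly beyond the 3 of the other for 116 of them, against 14.5% of all genes tested (7.23% with Zizyphi 500 above Zizyphi 20 and 7.25% below), with the nuclear envelope gene SYNE1 the exception. This choice of genes favours such separation, so it is given as a description. The 18 libraries of the Zizyphi and Longan extracts shared one estimate of the spread. With all 60 libraries 33 genes passed, of which 32 are among the 117. With the 6 libraries alone 62 passed, of which 57 are among the 117. In 4 edgeR fits that differ in the libraries used, 30 genes passed every time, 12 that rose and 18 that fell, and 24 of these also passed in each of the 6 runs that left out 1 library. In the plot of fold changes against p, ID4, ATOH8 and ID2 lie farthest to the left among called genes with a symbol and at least 2 CPM, and SCD and SREBF1 stand high at small fold changes.

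**Figure D1:**
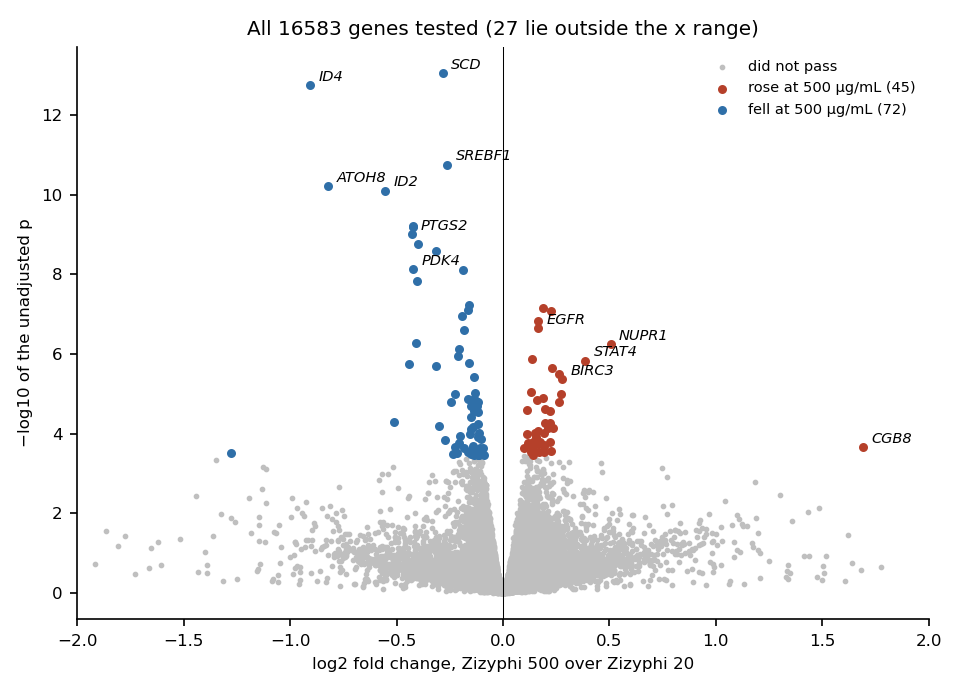
Each point is a gene, with the log2 fold change of Zizyphi 500 over Zizyphi 20 on the x axis and −log10 of the unadjusted p on the y axis. Blue points are the 72 genes that fell, red points the 45 that rose and grey points those that did not pass. The x axis ends at 2 in both directions, which leaves out 27 genes, 0 of them called.

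The ID genes fell together. All 4 of them and ATOH8, a basic helix-loop-helix factor reported as a BMP target, passed. ID4, ATOH8 and ID2 had the largest falls among called genes with a symbol and at least 2 CPM. ID4 (ENSG00000172201, chr6:19837386-19840684 on GRCh38) had 7.97, 6.41 and 6.83 CPM in the 3 Zizyphi 500 libraries, against 13.2, 12.2 and 14.5 CPM in Zizyphi 20. Each Zizyphi 500 library was well under the lowest Zizyphi 20 library, with a log2 fold change of −0.91 ± 0.083 (SE) and an adjusted p of 1.46e-09 (edgeR, n = 3 libraries per dose). ID2 (ENSG00000115738, chr2:8678845-8684453) had 75.4, 81.0 and 74.0 CPM in Zizyphi 500, against 111.9, 119.5 and 106.8 CPM in Zizyphi 20. These groups did not overlap either, and ID2 changed by −0.55 ± 0.047 (adjusted p 2.62e-07, edgeR). ID3 (ENSG00000117318, chr1:23557918-23559794) had 120.3, 126.3 and 118.5 CPM in Zizyphi 500, against 164, 169.9 and 155.5 CPM in Zizyphi 20, a change of −0.42 ± 0.041 (adjusted p 1.54e-06, edgeR). ID1 (ENSG00000125968, chr20:31605283-31606515) had 143.7, 143.7 and 133.1 CPM in Zizyphi 500, against 183.4, 190.2 and 180.5 CPM in Zizyphi 20, a change of −0.40 ± 0.040 (adjusted p 3.17e-06, edgeR). For both ID3 and ID1 the highest library of the higher dose lay under the lowest library of the lower dose. ATOH8 (ENSG00000168874, chr2:85751344-85788066) had 10.0, 9.54 and 11.01 CPM in Zizyphi 500, against 18.6, 17.8 and 17.8 CPM in Zizyphi 20, with no overlap, and changed by −0.82 ± 0.084 (adjusted p 2.5e-07, edgeR). In bulk RNA, fewer cells that express a gene and less of its RNA per cell cannot be told apart.

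The rest of the BMP list did not pass. The list holds 10 genes, all tested, of which 5 fell and 0 rose, beside 0.434% and 0.271% of all genes tested. Its median log2 fold change was −0.41, beside 0.0008 over all genes tested. The inhibitory SMAD6, also a BMP target, had 78.4, 70.4 and 73.7 CPM in Zizyphi 500 and 89.7, 82.9 and 77.0 CPM in Zizyphi 20, so the groups overlapped (log2 fold change −0.16 ± 0.058, adjusted p 0.304, edgeR). The BMP antagonist NOG was under 1 CPM in all 6 libraries. The other unpassed members, SMAD7, BAMBI and BMP4, had values of −0.09, −0.11 and −0.13. DESeq2 gave no adjusted p for ID4 and ATOH8, whose counts fell under its own filter, and ID1, ID2 and ID3 passed with it.

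**Figure D2:**
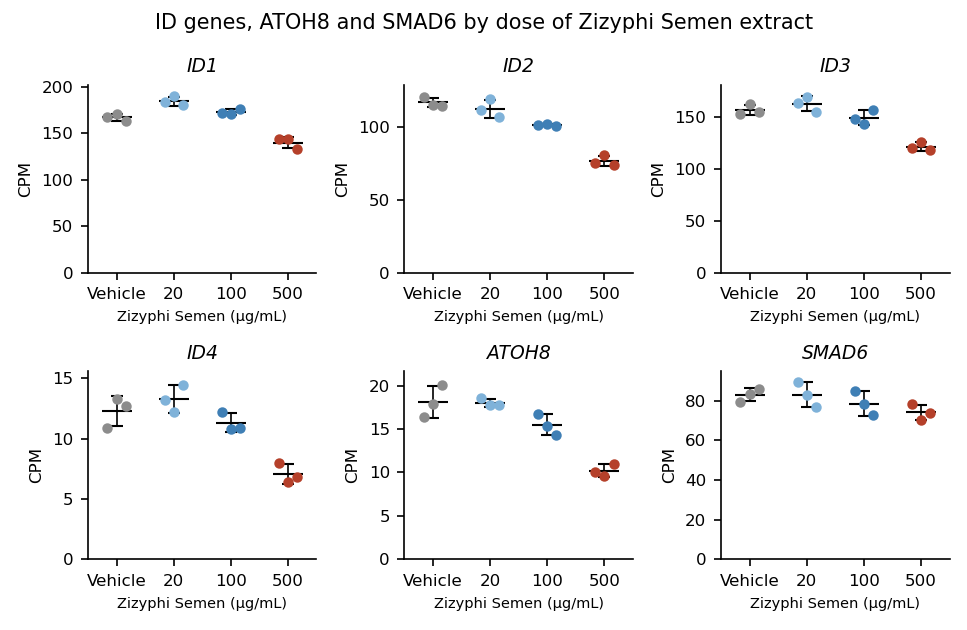
CPM of ID1, ID2, ID3, ID4, ATOH8 and SMAD6 in Vehicle and in Zizyphi Semen at 20, 100 and 500 µg/mL, 1 point per library, with the mean and SD of 3 libraries as bars. The 500 µg/mL libraries of the ID genes and ATOH8 lie under every other library shown, while those of SMAD6 overlap the lower doses. Vehicle belongs to another library set.

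The windows upstream of the ID genes are shown because these genes moved together. Each line gives the 250 bases before the RefSeq transcription start on GRCh38.p14, plus strand, 5′ to 3′, in lower case with the CCAAT box on either strand (CCAAT or ATTGG) in capitals: ID1 at chr20:31605039-31605288, ID2 at chr2:8681806-8682055 and ID4 at chr6:19837120-19837369.
ID1: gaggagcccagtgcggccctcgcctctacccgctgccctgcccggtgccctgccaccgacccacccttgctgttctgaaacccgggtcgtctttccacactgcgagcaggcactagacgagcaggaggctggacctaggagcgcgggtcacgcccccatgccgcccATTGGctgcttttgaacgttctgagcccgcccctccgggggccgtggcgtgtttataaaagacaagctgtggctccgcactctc
ID2: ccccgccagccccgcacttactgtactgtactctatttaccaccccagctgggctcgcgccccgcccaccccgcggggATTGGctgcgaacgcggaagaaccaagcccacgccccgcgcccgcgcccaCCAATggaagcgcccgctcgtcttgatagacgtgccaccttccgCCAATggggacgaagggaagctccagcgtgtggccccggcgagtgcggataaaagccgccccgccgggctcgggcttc
ID4: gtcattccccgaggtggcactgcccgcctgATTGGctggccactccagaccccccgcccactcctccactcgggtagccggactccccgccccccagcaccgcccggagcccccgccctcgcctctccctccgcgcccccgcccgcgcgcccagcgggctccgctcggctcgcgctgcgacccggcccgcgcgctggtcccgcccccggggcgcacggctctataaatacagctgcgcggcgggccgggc
ID2 held 3 such boxes, and ID1 and ID4 held 1 each. The windows of ID3 and ATOH8 held 0, and 32.0% of 35116 promoter windows of the same length in the table held at least 1. Of the other motifs searched on both strands, TGACG, part of the cAMP response element, was in the window of ID3 and in 21.2% of all windows, and CACGTG, an E-box, was in 0 of these 5 and in 6.34% of all. These matches describe letters and not binding.

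Fatty acid synthesis genes fell as well, by smaller amounts and with little spread. Of 13 tested members of the list, 6 fell and 0 rose, beside 0.434% and 0.271% of all genes tested. The median log2 fold change was −0.07. SCD (ENSG00000099194, chr10:100347124-100364834) had 936.5, 923.7 and 908.9 CPM in Zizyphi 500, against 1143, 1134 and 1095 CPM in Zizyphi 20. The gap between the groups was many times the spread within them, and SCD changed by −0.28 ± 0.026 (adjusted p 1.46e-09, edgeR). SREBF1 (ENSG00000072310, chr17:17810399-17837002), which encodes the regulator of these enzymes, had 173, 167.8 and 172.5 CPM in Zizyphi 500, against 208.5, 208.4 and 199.2 CPM in Zizyphi 20. Its groups did not overlap, and the change was −0.26 ± 0.028 (adjusted p 9.74e-08, edgeR). FASN (ENSG00000169710, chr17:82078333-82098332) had 584.8, 557.3 and 568.7 CPM in Zizyphi 500, against 632, 650.8 and 634.5 CPM in Zizyphi 20, a change of −0.16 ± 0.025 (adjusted p 8.08e-05, edgeR). ACACA (ENSG00000278540, chr17:37084988-37406818) had 239.9, 234.4 and 239.4 CPM in Zizyphi 500, against 262.1, 264.1 and 270.9 CPM in Zizyphi 20, a change of −0.16 ± 0.024 (adjusted p 6.97e-05, edgeR). Neither enzyme's groups overlapped. With all 60 libraries in the fit the changes of FASN and ACACA were alike in size and no longer passed, with adjusted p of 0.320 and 0.268 (edgeR), while SCD and SREBF1 passed in every fit run.

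The remaining called members were ACSL3, which loads long-chain fatty acids onto coenzyme A (−0.13 ± 0.025, adjusted p 0.00187), and the desaturase FADS2 (−0.11 ± 0.027, adjusted p 0.0242, edgeR). FADS2 was lost with the 6 libraries alone (0.0683), and in 5 of 6 runs without 1 library, each but that without Zizyphi 20 replicate 3 (0.0714 to 0.124). ATP citrate lyase (ACLY), which supplies the acetyl-CoA, had a log2 fold change of −0.05 (adjusted p 0.504, edgeR), the desaturase FADS1 −0.05 and the elongase ELOVL6 0.00, and these did not pass. Against Vehicle the levels did not follow one pattern. SCD stood at 1025, 1081 and 1000 CPM in Vehicle, below Zizyphi 20 and above Zizyphi 500. FASN stood at 580.7, 593.2 and 604.7 CPM and ACACA at 232.8, 245.2 and 237.6 CPM in Vehicle, ranges that meet those of Zizyphi 500.

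**Figure D3:**
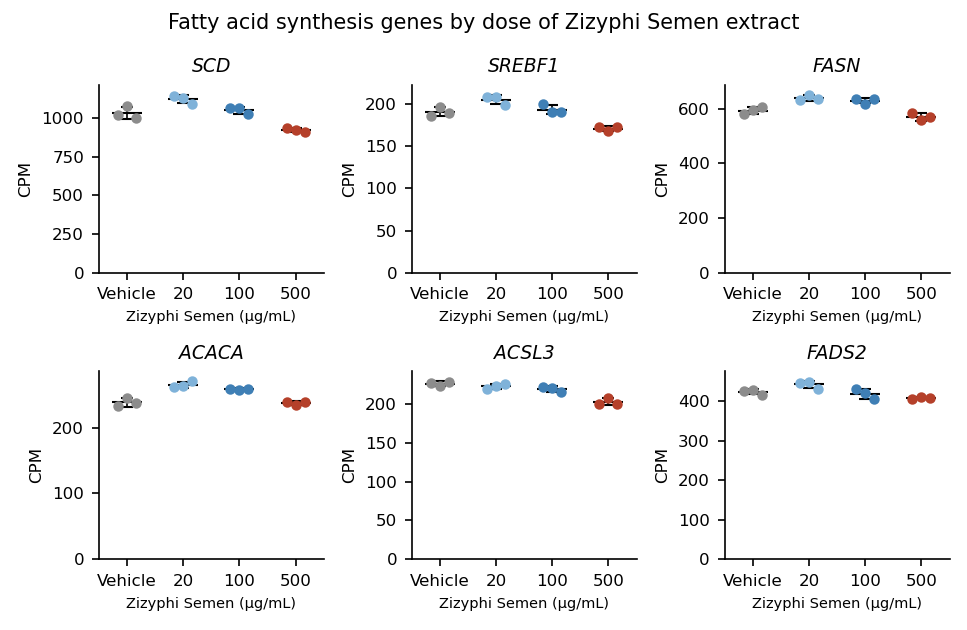
CPM of SCD, SREBF1, FASN, ACACA, ACSL3 and FADS2 in Vehicle and in Zizyphi Semen at 20, 100 and 500 µg/mL, 1 point per library, with the mean and SD of 3 libraries as bars. All axes start at 0, so the small size of the differences is visible: SCD averaged 923 CPM at 500 µg/mL and 1124 CPM at 20 µg/mL. Vehicle belongs to another library set.

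The window upstream of SCD is shown as that of the fatty acid gene with the smallest p, in the same format, at chr10:100346983-100347232 on GRCh38.p14, plus strand, with CCAAT in capitals.
SCD: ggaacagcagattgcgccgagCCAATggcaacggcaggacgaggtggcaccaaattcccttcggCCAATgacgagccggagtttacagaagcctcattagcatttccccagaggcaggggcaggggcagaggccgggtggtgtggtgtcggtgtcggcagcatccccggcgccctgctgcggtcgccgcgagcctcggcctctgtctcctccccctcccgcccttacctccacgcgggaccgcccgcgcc
It held 2 CCAAT boxes. ACACA and ACSL3 held 1 or more in a window of the table, SREBF1 and FADS2 held 0, and FASN is not given. GGCGCC was in the window of SCD, in 1 of the 3 windows of ACACA and in 16.4% of all windows, and CACGTG was in 0 of the fatty acid genes' windows.

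Cholesterol synthesis did not fall with fatty acid synthesis. Of 24 tested members of that list 1 rose and 0 fell, beside 0.271% and 0.434% of all genes tested. The median log2 fold change was 0.01. The member that rose, the sterol oxidase MSMO1, had 38.8, 38.7 and 35.3 CPM in Zizyphi 500, against 32.8, 33.4 and 32.6 CPM in Zizyphi 20 (0.19 ± 0.047, adjusted p 0.0401, edgeR). That call was lost with the 6 Zizyphi libraries alone (adjusted p 0.0689), with DESeq2 (0.0806) and in 5 of 6 edgeR runs without 1 library, each but that without Zizyphi 500 replicate 3 (0.0932 to 0.212). HMGCS1 and SQLE, earlier enzymes of the pathway, had log2 fold changes of 0.07 and 0.10 and did not pass (adjusted p 0.293 and 0.137, edgeR). Of 8 tested targets of the sterol sensor LXR, 1 fell and 0 rose (median −0.16). It was LPCAT3, which remodels phospholipids (−0.22 ± 0.044, adjusted p 0.00442, edgeR). LPCAT3 was lost without Zizyphi 500 replicate 1 (0.0607) or Zizyphi 20 replicate 1 (0.0540). The transporter genes ABCA1 (−0.16) and ABCG1 (−1.13 ± 0.307) of that list did not pass (adjusted p 0.400 and 0.0728, edgeR). Of the 8 targets, 6 had values below 0 and 4 had an unadjusted p under 0.05.

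PTGS2, PDK4, SUSD2 and NR4A1 also fell, each by a log2 change between −0.43 and −0.40. PTGS2, which encodes the inducible cyclooxygenase of prostaglandin synthesis, had 17.7, 19.4 and 20.0 CPM in Zizyphi 500, against 25.6, 25.7 and 25.6 CPM in Zizyphi 20, a change of −0.43 ± 0.054 (adjusted p 2e-06, edgeR). PDK4, a kinase that keeps pyruvate out of the citric acid cycle, had 20.1, 22.4 and 18.7 CPM in Zizyphi 500, against 28.4, 26.9 and 26.6 CPM in Zizyphi 20, a change of −0.42 ± 0.058 (adjusted p 1.09e-05, edgeR). Neither gene's groups overlapped, and both stood higher still in Vehicle, at 30.8, 28.3 and 30.1 CPM for PTGS2 and 33.7, 33.3 and 34.2 CPM for PDK4. PDK4 was the only called member among 8 tested PPAR targets, whose median was 0.07; ANGPTL4 of that list had 0.13 and did not pass. SUSD2, a membrane protein gene, had 27.1, 26.9 and 25.5 CPM in Zizyphi 500, against 36.1, 37.3 and 33.1 CPM in Zizyphi 20 (−0.42 ± 0.052, adjusted p 1.54e-06, edgeR). NR4A1, an immediate early nuclear receptor gene, had 26.8, 27.2 and 22.7 CPM in Zizyphi 500, against 34.6, 34.6 and 32.2 CPM in Zizyphi 20 (−0.40 ± 0.056, adjusted p 1.88e-05, edgeR). Both were free of overlap, and NR4A1 was the only called member among 10 tested cAMP and CREB targets (median −0.08). Of all genes tested, 0.434% fell and 0.271% rose. With all 60 libraries PTGS2 and PDK4 did not pass (adjusted p 0.268 and 0.204), while SUSD2 and NR4A1 did.

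The other large falls under the naming rule were HHIPL2 (−0.44 ± 0.079, adjusted p 0.00102), the calcium-binding protein gene S100P (−0.41 ± 0.069, adjusted p 0.000409) and the pseudogene ZDHHC8BP (−0.51 ± 0.113, adjusted p 0.0151, edgeR). S100P had 11.1, 12.1 and 10.9 CPM in Zizyphi 500, against 14.02, 15.7 and 15.5 CPM in Zizyphi 20, and it did not pass with 60 libraries (0.199). Reads of a pseudogene can be divided between it and its parent gene, so the value of ZDHHC8BP is uncertain, and it was lost without Zizyphi 500 replicate 1 (0.103), Zizyphi 20 replicate 1 (0.0768) or Zizyphi 20 replicate 2 (0.0937). TBX3, a T-box repressor gene chosen after its values were seen, had 53.8, 52.0 and 54.4 CPM in Zizyphi 500, against 70.4, 64.3 and 64.5 CPM in Zizyphi 20 (−0.31 ± 0.041, adjusted p 4.35e-06, edgeR). The extremes of fold belong to genes under 1 CPM: CGB8, a member of the multicopy chorionic gonadotropin family, at 1.69 ± 0.417 (adjusted p 0.0409), and the antisense gene AC012640.4 at −1.28 ± 0.323 (adjusted p 0.0468, edgeR). CGB8 was lost in 5 of 6 runs without 1 library, each but that without Zizyphi 20 replicate 3 (0.0932 to 0.226), and AC012640.4 in 5 of 6, each but that without Zizyphi 20 replicate 1 (0.0914 to 0.273). Both values are uncertain, since copies of a family share reads and the strand setting of the count is not known.

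On the lists of targets of the xenobiotic receptor AHR and of the antioxidant regulator NRF2, 0 genes rose and 4 fell. Over all genes tested 0.271% rose and 0.434% fell. ALDH3A1, an aldehyde dehydrogenase and known AHR target, had 628.3, 666.4 and 644.4 CPM in Zizyphi 500, against 726.9, 752.8 and 726.8 CPM in Zizyphi 20. Its groups did not overlap (−0.19 ± 0.026, adjusted p 1.09e-05, edgeR), Vehicle stood higher at 887, 843 and 851 CPM, and the call was lost with 60 libraries (0.488). It was the only call among 8 tested AHR targets (median −0.08), and CYP1A1, the classical AHR target, had a value of −0.29 and did not pass (adjusted p 0.688, edgeR). Of 24 NRF2 targets, which encode antioxidant enzymes, 3 fell and 0 rose, with a median of −0.01. TXNRD1, thioredoxin reductase, had 1927, 1800 and 1856 CPM in Zizyphi 500, against 2019, 2025 and 2193 CPM in Zizyphi 20 (−0.16 ± 0.028, adjusted p 0.00102, edgeR). GCLC, which limits glutathione synthesis, changed by −0.12 ± 0.024 (adjusted p 0.00581) and the sulfiredoxin gene SRXN1 by −0.13 ± 0.027 (adjusted p 0.00547, edgeR). GCLC did not pass with the 6 libraries alone (0.0602), and SRXN1 was lost without Zizyphi 500 replicate 2 (0.0590), Zizyphi 500 replicate 3 (0.0523) or Zizyphi 20 replicate 3 (0.0697). NQO1 and HMOX1 had values of −0.04 and 0.06 and did not pass. Among 16 tested genes of drug metabolism 3 fell (median −0.09): ALDH3A1, the fatty acid hydroxylase CYP4F11 (−0.15) and the vitamin D hydroxylase CYP24A1 (−0.10). Among 15 selenoprotein genes 3 fell (median −0.02): TXNRD1, SELENOH (−0.20) and the deiodinase DIO2 (−0.15).

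The G1 cyclins CCND1 and CCND3 fell, and no other cell cycle gene on the lists passed. CCND3 had 166, 162 and 158 CPM in Zizyphi 500, against 189, 191 and 177 CPM in Zizyphi 20, without overlap (−0.19 ± 0.030, adjusted p 0.0001, edgeR). CCND1 averaged 395 ± 10.9 CPM in Zizyphi 500 and 432 ± 6.36 CPM in Zizyphi 20 (SD, n = 3 libraries per dose), a change of −0.13 ± 0.026 (adjusted p 0.00442, edgeR), and it was lost without Zizyphi 500 replicate 2 (0.0606) or Zizyphi 500 replicate 3 (0.0523) and with all 60 libraries (0.109). They are 2 of 7 tested genes on their list, whose median was −0.02, while 0.434% of all genes tested fell. Of 22 DNA replication genes 0 passed, with 20 values below 0 and a median of −0.04, beside 8202 of 16583 below 0 over all genes. PCNA, the polymerase clamp, was nearest with −0.11 (adjusted p 0.0578, edgeR), and it passed without Zizyphi 20 replicate 1 (0.0211), with DESeq2 (0.0330), without a filter on low counts (0.0323) and with the filter at 1 CPM (0.0481). Of 20 mitosis genes 0 passed (median −0.01), and MKI67 had −0.07 (adjusted p 0.400, edgeR). Of 20 p53 targets 0 passed (median 0.03), with CDKN1A at −0.11.

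The stress gene NUPR1, STAT4 and the NF-kB genes NFKB2 and BIRC3 were among the largest rises. NUPR1, a stress-induced chromatin protein gene, had 9.70, 11.5 and 10.97 CPM in Zizyphi 500, against 7.16, 7.16 and 8.34 CPM in Zizyphi 20. Its groups did not overlap (0.51 ± 0.085, adjusted p 0.000415, edgeR), and it was the only call among 24 ATF4 targets, whose median was −0.02; TRIB3 and ASNS of that response had −0.04 and 0.02 and did not pass. STAT4, a transcription factor of cytokine signalling, had 13.8, 15.5 and 14.4 CPM in Zizyphi 500, against 10.9, 11.2 and 11.2 CPM in Zizyphi 20 (0.39 ± 0.068, adjusted p 0.000895, edgeR). NFKB2, which encodes the p100 and p52 subunits of NF-kB, had 58.1, 61.0 and 55.3 CPM in Zizyphi 500, against 45.6, 50.4 and 49.4 CPM in Zizyphi 20 (0.26 ± 0.047, adjusted p 0.00168, edgeR). For both genes all libraries of the higher dose lay above those of the lower. BIRC3, an NF-kB-driven inhibitor of apoptosis, had 34.4, 39.3 and 34.5 CPM in Zizyphi 500, against 30.3, 28.0 and 30.9 CPM in Zizyphi 20 (0.28 ± 0.052, adjusted p 0.00209, edgeR), and was lost without Zizyphi 500 replicate 2 (0.0722) or Zizyphi 20 replicate 2 (0.0538). TNFAIP2, a gene induced by tumour necrosis factor, had 374.3, 373.3 and 385.1 CPM in Zizyphi 500, against 328.9, 336.5 and 346.4 CPM in Zizyphi 20 (0.16 ± 0.026, adjusted p 0.000126, edgeR). Among 15 tested NF-kB and cytokine genes BIRC3 and TNFAIP2 rose and 0 fell (median 0.05), and the chemokine gene CXCL8 was near 1 CPM with a value of 0.00. Without Zizyphi 500 replicate 2 or Zizyphi 20 replicate 2 that count was 1. Over all genes tested 0.271% rose and 0.434% fell. Of 14 interferon-stimulated genes 0 passed (median 0.05), and of 16 complement and acute phase genes 0 passed (median 0.05).

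Among 21 mesenchymal and matrix genes 1 rose and 1 fell, with a median of 0.00, beside 0.271% and 0.434% of all genes tested. The fall was that of TGFBI, a matrix adaptor gene (−0.10 ± 0.024, adjusted p 0.0416, edgeR). The hyaluronan synthase HAS3 (0.22), the fibulin EFEMP1 (0.23), the keratin KRT4 (0.23), the bradykinin receptor BDKRB2 (0.23), the phospholipase PLCE1 (0.22), the nuclear body protein SP100 (0.27) and the pseudogene NSUN5P1 (0.26, uncertain for the reason given above) were also among the largest rises. EFEMP1 averaged 54.2 CPM in Zizyphi 500 and 46.2 CPM in Zizyphi 20. EGFR, the epidermal growth factor receptor, and SMAD3, a transducer of TGF-beta, were chosen after their values were seen. EGFR had 242.8, 235.1 and 236.2 CPM in Zizyphi 500, against 215.6, 209.9 and 211.4 CPM in Zizyphi 20 (0.17 ± 0.027, adjusted p 0.000182, edgeR). SMAD3 had 372, 363 and 369 CPM in Zizyphi 500, against 338, 335 and 331 CPM in Zizyphi 20 (0.14 ± 0.024, adjusted p 0.000834, edgeR). Neither had overlapping groups, and EGFR did not pass with all 60 libraries (0.351). Of 11 tested lung epithelial genes KRT19 (0.22) and ABCA3, a lipid transporter of alveolar cells (0.19), rose and 0 fell (median 0.09).

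Several of these rises and falls depended on single libraries. The adjusted p (edgeR) without Zizyphi 500 replicate 1 was 0.127 for BDKRB2, 0.0514 for HAS3, 0.0956 for CYP24A1 and 0.0816 for CYP4F11. Without Zizyphi 500 replicate 2 it was 0.206 for ABCA3, 0.220 for BDKRB2, 0.133 for KRT19, 0.133 for KRT4, 0.0664 for NSUN5P1, 0.0664 for DIO2, 0.285 for SELENOH and 0.230 for CYP24A1. Without Zizyphi 500 replicate 3 it was 0.192 for ABCA3, 0.0531 for BDKRB2, 0.0502 for HAS3, 0.272 for KRT19, 0.111 for KRT4, 0.0914 for SELENOH, 0.0531 for CYP4F11 and 0.0855 for CYP24A1. In the 3 runs without a Zizyphi 20 library, at least 1 of which ended the call for each gene named so far here other than NSUN5P1, the lost calls of these genes had adjusted p of 0.0507 to 0.220. TGFBI was lost in all 6 runs (0.0665 to 0.154). SP100, EFEMP1 and PLCE1 passed in all 6, though PLCE1 did not pass with all 60 libraries (0.0767). With the 6 libraries of both doses alone, calls were also lost for ABCA3 (0.0938), KRT19 (0.0695), BDKRB2 (0.0689) and SELENOH (0.0952, edgeR). The same fit lost CYP24A1 (0.138), CYP4F11 (0.0625) and TGFBI (0.139), while HAS3 and KRT4 passed in it. DESeq2 lost ABCA3 (0.100), KRT19 (0.0632) and SELENOH (0.0787).

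Most other lists barely moved, and the plot of list members shows their values close to 0. Of 18 endoplasmic reticulum chaperone genes CALR rose (0.13; median 0.01), while HSPA5 stood at 0.01 and did not pass; CALR was lost without Zizyphi 20 replicate 3 (adjusted p 0.0564). Among 21 MAPK early and feedback genes JUNB rose (0.13) and PHLDA1 fell (−0.17; median −0.03), with JUNB lost in all 6 runs without 1 library (0.0647 to 0.220) and PHLDA1 lost without Zizyphi 500 replicate 2 (0.0722) or Zizyphi 20 replicate 1 (0.0725). Single members passed on 5 more lists. These were the autophagy receptor SQSTM1, which rose by 0.10 (1 of 23, median 0.00), the metallothionein MT2A, which rose by 0.19 (1 of 6, median 0.03), PFKFB3, which fell by 0.10 (1 of 19 hypoxia genes, median −0.01), the hexokinase HK1, which fell by 0.15 (1 of 19 glycolysis genes, median −0.01), and ERRFI1, which fell by 0.12 (1 of 9 glucocorticoid receptor targets, median −0.12). Each of these 5 was lost in 3 to 5 of the 6 runs without 1 library, with adjusted p of 0.0507 to 0.230. No member passed among 17 heat shock genes (median 0.01), 18 FOXO targets (0.02), 24 nuclear-encoded oxidative phosphorylation genes (−0.01), 13 genes of the mitochondrial genome (0.07), 24 cytosolic ribosomal protein genes (0.01), 9 histone genes (−0.04) and 3 tested markers of other cell types (0.06). The heat shock gene HSPD1, a mitochondrial chaperone, passed with DESeq2 (−0.08, adjusted p 0.0129). In all, 40 of the 117 genes are on the 34 lists. Over all genes tested 0.706% passed, and at that share lists this short would mostly hold no call. An absence of calls therefore does not set a list apart.

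**Figure D4:**
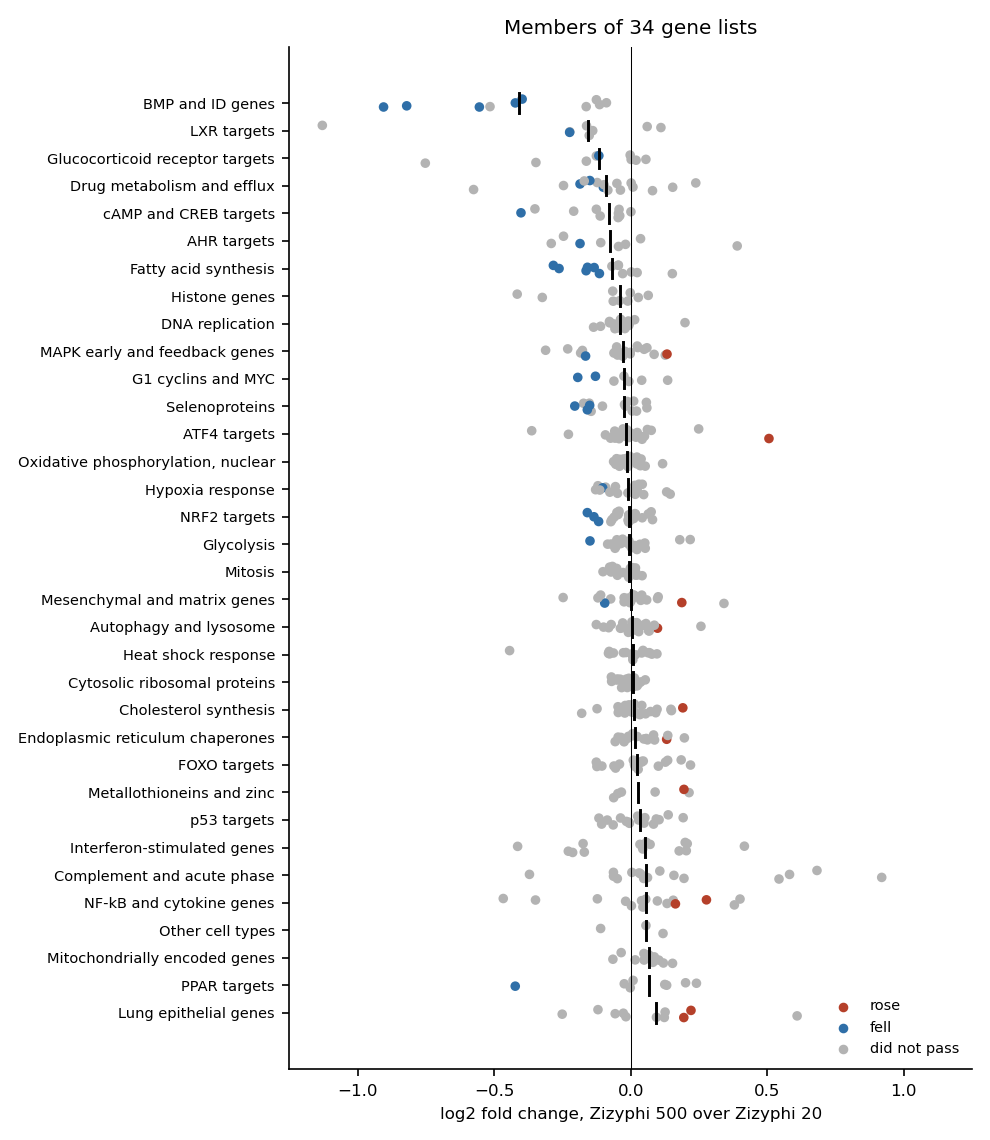
Log2 fold change of Zizyphi 500 over Zizyphi 20 (x axis) for the tested members of 34 gene lists (rows, ordered by their median, a black bar). Blue points fell, red points rose and grey points did not pass. The BMP and ID list has the lowest median, −0.41, and every other median lies between −0.16 and 0.09.

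The middle dose lay between the others for most of these genes. At Zizyphi 100, ID2 had 101.8, 102.6 and 101.2 CPM, ID4 had 12.2, 10.8 and 10.9 CPM, SCD had 1066, 1065 and 1027 CPM and NFKB2 had 51.2, 47.0 and 52.3 CPM. The mean at 100 µg/mL fell between those of the other doses for 107 of the 117 genes (91.5%), beside 38.4% of all genes tested; since the genes were chosen for a gap between the end doses, a middle value is favoured. Against Zizyphi 100, 34 genes passed in Zizyphi 500 (0.205%; 12 rose, 0.0724%, and 22 fell, 0.133%), and both comparisons use the same Zizyphi 500 libraries. ID2 changed by −0.41 ± 0.047 in that step (adjusted p 0.000125), ID4 by −0.68 ± 0.086 (adjusted p 1.76e-05), SCD by −0.19 ± 0.026 (adjusted p 4.43e-05) and FASN by −0.14 ± 0.025 (adjusted p 0.00196, edgeR). Between Zizyphi 100 and Zizyphi 20, 0 genes passed with edgeR (0.0%), 782 had an unadjusted p under 0.05, and DESeq2 called 1, ALDH3A1. In that step ID2 had a log2 fold change of −0.15, ID4 −0.23, SCD −0.09 and FASN −0.02. ALDH3A1 was placed otherwise, with −0.05 between Zizyphi 500 and Zizyphi 100 and −0.13 between Zizyphi 100 and Zizyphi 20, neither of which passed (adjusted p 0.639 and 0.0815, edgeR); the second passed without Zizyphi 500 replicate 2 (0.0488) and with DESeq2 (0.000244).

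Longan Arillus, in the same library set and at the same doses, shows which dose differences were larger with Zizyphi Semen. Between Longan 500 and Longan 20, 5 genes passed (0.0302%; 664 at an unadjusted p under 0.05): all 4 ID genes fell (0.0241%) and 1 gene without a symbol, ENSG00000280158, rose (0.00603%). ID4 had 8.82, 9.68 and 9.59 CPM in Longan 500, against 12.5, 12.1 and 12.4 CPM in Longan 20 (−0.40 ± 0.080, adjusted p 0.0387, edgeR). ID2 changed by −0.28 ± 0.046 (adjusted p 0.0244), ID3 by −0.25 ± 0.041 (adjusted p 0.0212) and ID1 by −0.23 ± 0.040 (adjusted p 0.0361), while ATOH8 missed at −0.41 ± 0.081 (adjusted p 0.0564, edgeR). ATOH8 passed with the filter at 1 CPM (0.0394) and without Zizyphi 500 replicate 3 (0.0496), a library that enters the shared estimate of the spread. Leaving out any 1 of the 6 Longan libraries left 0 to 2 genes: 0 without Longan 500 replicate 2 or Longan 20 replicate 1, ID1 alone without Longan 20 replicate 2, and ID2 with ID3 or ENSG00000280158 in the other runs. Without Zizyphi 20 replicate 1 ENSG00000280158 alone passed. The dose difference of Zizyphi minus that of Longan was −0.51 ± 0.117 for ID4 (adjusted p 0.0623), −0.41 ± 0.117 for ATOH8 (adjusted p 0.288), −0.27 ± 0.065 for ID2 (adjusted p 0.130), −0.17 ± 0.058 for ID3 and −0.17 ± 0.057 for ID1 (adjusted p 0.521 and 0.516, edgeR). None of these passed, so the data do not separate the extracts for the ID genes, and a miss does not show that they acted alike.

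The difference itself passed for 22 genes (0.133%; 6 higher for Zizyphi, 0.0362%, and 16 lower, 0.0965%, with 1136 at an unadjusted p under 0.05), and fatty acid genes were among them. SCD had 1058, 1061 and 1112 CPM in Longan 500, against 1101, 1078 and 1070 CPM in Longan 20, with overlap (−0.01 ± 0.026), and the difference between extracts was −0.28 ± 0.036 (adjusted p 4.06e-05, edgeR). SREBF1 differed by −0.23 ± 0.040 (adjusted p 0.00254), ACACA by −0.19 ± 0.034 (adjusted p 0.00268) and FASN by −0.16 ± 0.035 (adjusted p 0.0479, edgeR). PTGS2, PDK4, SUSD2, CCND3 and ALDH3A1 were lower by the same test, and NFKB2, TNFAIP2 and NSUN5P1 were higher. Of the 12 runs that left out 1 library of either extract, the difference was lost in 10 for FASN, those other than without Zizyphi 500 replicate 1 or Zizyphi 20 replicate 3 (adjusted p 0.0580 to 0.194; also with the filter at 1 CPM, 0.0506), in 8 for NFKB2 (0.0734 to 0.184) and in 7 for TNFAIP2 (0.0748 to 0.210). It held in all 12 for SCD, SREBF1, ACACA, PTGS2, PDK4, SUSD2, CCND3, ALDH3A1 and NSUN5P1. Other genes that passed, named after their values were seen, included TBX3, MID1, CPS1, PLA2G4A and CLDN2, all lower, and MEG3 and ITGA3, both higher, and ENSG00000280158 was lower. Of these only CPS1 held in all 12 runs. CPS1, a mitochondrial enzyme gene of ammonia use, averaged 53.2 ± 1.21 CPM in Zizyphi 500 and 61.8 ± 1.62 CPM in Zizyphi 20 (SD, n = 3 libraries per dose), and the difference between extracts was −0.29 ± 0.052 (adjusted p 0.00357, edgeR). PLA2G4A, the cytosolic phospholipase that releases arachidonic acid for the cyclooxygenases, differed by −0.36 ± 0.070 (adjusted p 0.00995, edgeR), a call lost without Zizyphi 500 replicate 3 (0.101), Zizyphi 20 replicate 1 (0.0580), Longan 500 replicate 2 (0.0834) or Longan 20 replicate 3 (0.101). With all 60 libraries in the fit 0 genes passed this test.

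**Figure D5:**
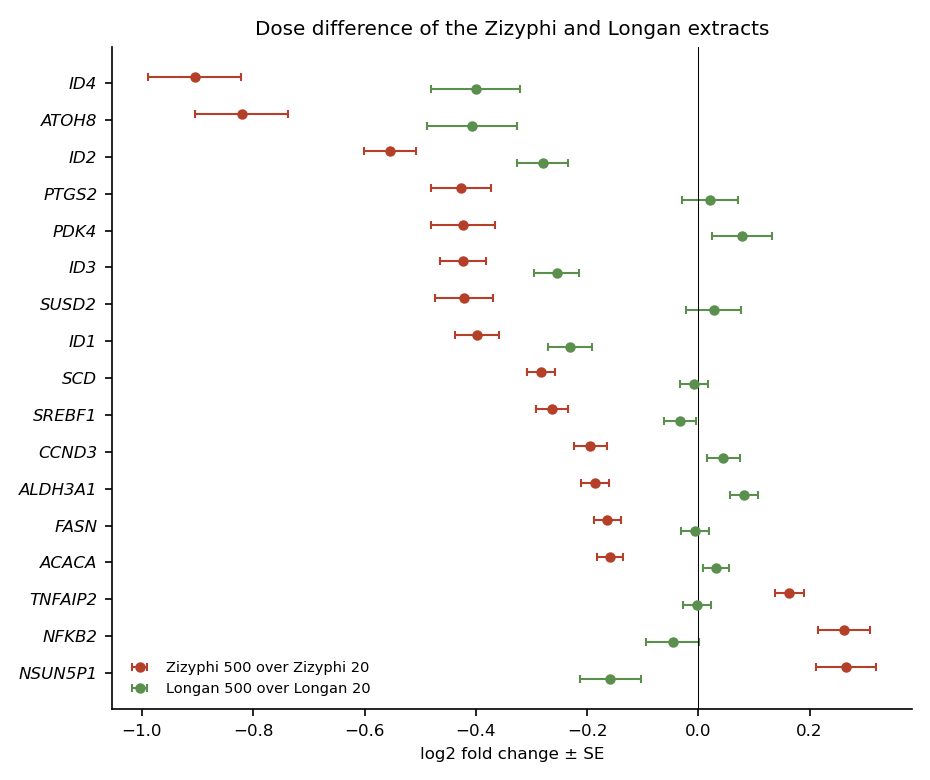
Log2 fold change between 500 and 20 µg/mL (x axis, ± SE) for Zizyphi Semen (red, upper) and Longan Arillus (green, lower) in 17 genes. The ID genes and ATOH8 lie below 0 for both extracts, while SCD, SREBF1, FASN and ACACA lie near 0 for Longan.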

How the data were processed

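RNA-seq of 60 A549 libraries was analysed, with groups, doses and the 24 h exposure taken from the labels. The authors deposited 1 table of expected counts, RSEM's estimates of fragments per gene, without scaling. RSEM 1.3.3, STAR 2.7.3a, Trim Galore 0.6.5 and FastQC 0.11.9 and the build GRCh38 are listed, per the submitters' processing notes. Not given in the sources used here: annotation release and strand setting. Antisense genes and copies that share reads are therefore uncertain. Of the values 10.7% were not whole, and they were rounded. Nothing says that replicates were separate cultures, so p-values measure the spread between these samples, which may be technical.

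The 18 Zizyphi and Longan libraries were fitted together with 1 mean per group (12 residual degrees of freedom) in edgeR 4.0.16 (R 4.3.3): filterByExpr, TMM, a robust quasi-likelihood test, Benjamini-Hochberg over 16583 genes, called at an adjusted p under 0.05. SE is the absolute log2 fold change over the square root of F. CPM use one TMM scale over all 60 libraries. Alternatives were DESeq2 1.42.0, relative log expression factors, other filters, other sets of libraries, the replicate number as a block, and leaving out each library. The code was tested on simulated data. Symbols came from the reference gene table (41209 of 60675 genes) and GENCODE 29 (15846), which also gave positions, and 3620 genes had none. Promoters are from RefSeq (GRCh38.p14) and matched 10 of the 11 genes looked up.

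Named genes are the up to 12 largest rises and falls among called genes with a symbol and at least 2 CPM, up to 4 called members of each list by adjusted p (2 by p where 0 were called), and a panel of 24 genes. The members, lists and panel were chosen with earlier results of these data known. Some results are not reported here.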

Additional observations from a re-analysis of the deposited data

Results flagged for a closer look

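For 12 of the named genes the difference between 500 and 20 µg/mL was not the same with the Zizyphi extract as with the Longan extract, by a test of the difference itself (edgeR's quasi-likelihood test, 18 libraries, adjusted p under 0.05). Given as Zizyphi minus Longan on the log2 scale, it was −0.50 for PDK4, −0.45 for SUSD2, −0.45 for PTGS2, −0.28 for SCD, −0.27 for ALDH3A1, −0.24 for CCND3, −0.23 for SREBF1, −0.19 for ACACA and −0.16 for FASN. It was 0.42 for NSUN5P1, 0.31 for NFKB2 and 0.17 for TNFAIP2. Both extracts lie in 1 library set. The dose difference of Longan alone did not pass for any of the 12 (edgeR).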

How the results depend on the processing

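The 500 against 20 µg/mL count of 117 genes was 62 with the 6 libraries, 61 with the 9 Zizyphi libraries and 33 with all 60. It was 176 without a filter on low counts and 58 to 91 without 1 library. Relative log expression factors gave 115, the filter at 1 CPM 128 and the replicate number as a block 135. DESeq2 gave 104, with 80 of the 117 among them. It gave no adjusted p for 9967 of the 16583 genes tested, 16 of the 117 among them. Deviations of same-numbered replicates of both doses correlated at 0.0242, 0.013 and 0.0496, and those of differently numbered ones at −0.0462 to 0.0217. These small values do not settle whether same-numbered replicates share more than a number. With the block PCNA passed (0.0474), C3 passed (0.0443), which made the complement count of 0 a count of 1, and NFKB2's difference between extracts did not pass (0.0714). Zizyphi 500 against 100 gave 34, and 16 with 9 libraries, 9 with 60, 62 without a filter, 47 with the block and 16 to 21 without 1 library. Zizyphi 100 against 20 gave 0, and 1 with 9 libraries (a small RNA gene, RF02104), with DESeq2 and with the block (ALDH3A1 in both), and 13 without a filter. Longan gave 5, and 0 with 60 libraries, 17 without a filter, 0 to 2 without 1 Longan library and 1 to 6 without 1 Zizyphi library; with the block its 5 were ID2, ID4, ATOH8 (0.0201), ADGRG1 and ENSG00000280158, without ID1 and ID3. Zizyphi minus Longan gave 22, and 0 with 60 libraries, 56 without a filter, 33 with the block and 13 to 28 without 1 library. Called list members numbered 40, and 26 with 6 libraries, 18 with 60 and 23 to 31 without 1 library. Fatty acid calls numbered 6, and 3 with 60 libraries; BMP and ID calls 5, and 3 with DESeq2, which gave the other 2 no adjusted p; NF-kB calls 2, and 1 to 3 without 1 library. Fewer samples enter some of these fits; otherwise the cause was not tested. With 60 libraries 28 named genes lost their call. The 94 named genes include genes that were not called, so fewer than 94 had a call to lose. Of all 117 called genes, 32 also passed with 60 libraries. Reversals of sign were seen among named genes without 1 library and under no other setting run, in 6 genes that were not called: IGF2 (−0.14 to 0.0305 over the 6 runs), DUSP6 (−0.11 to 0.0511), CXCL8 (−0.13 to 0.19), HSPA5 (−0.003 to 0.0211), ASNS (−0.0027 to 0.046) and CD68 (−0.0004 to 0.20). The smallest fold among the 117 called genes was 1.06 and their median was 1.12. How often 3 libraries per dose would miss folds this small was not tested. An unpassed gene is therefore not shown to be the same at both doses.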
